A study of Mus musculus with 2 samples.

Results

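The collagen chain genes are the genes with a protein-coding transcript whose symbol follows the pattern of a mouse collagen alpha chain (Col, the collagen type, a, the chain number). The annotation behind the deposited tables holds 44 of them, among 55536 genes and among 21901 genes with a protein-coding transcript. They were measured by total RNA-seq in gastrocnemius, the large calf muscle, of adult female mice aged 8 to 10 months. The mice came from a cross of 5xFAD with CAST. 5xFAD is an Alzheimer's disease model whose mutated human transgenes, APP included, are driven by the neuronal Thy1 promoter, and CAST is an inbred strain of wild origin. There was 1 group of 2 libraries, each made from 300 ng of RNA and labelled as biological replicate 1 or 2, here library 1 and library 2. Both carry the same donor identifier but different sample identifiers, so the labels leave unsettled whether 2 animals were used, and the spread between the libraries may be in part technical. With no control genotype, tissue or age in the series, the data give the level of each collagen gene in this muscle and the difference between the libraries.

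Library 1 held 35594289 expected counts in all, and library 2 held 34541905. Expected counts are reads assigned to a gene, with reads that fit several genes shared out. Levels are from tables in RSEM's format, the first quantifier, and were set beside a separate quantification in kallisto's format, the second quantifier. All 6 muscle fibre markers were abundant in both libraries, among them the skeletal actin gene Acta1 at 16962 and 19000 TPM (a length-corrected measure of how much of the RNA a gene's transcripts make up). The cartilage and bone markers Matn1, Sp7, Ibsp and Bglap had 0 counts in both libraries, and the keratin Krt14, a skin marker, also had 0. Of the other markers on these lists, the cartilage and tendon matrix gene Comp was at 5.15 and 5.02 TPM, Acan had 1 and 3 counts, Krt10 was at 1.33 and 0.76 TPM from 24 and 11 counts, and Krt5 had 1 and 0 counts. A count of 0 allows up to 3 counts, or 0.0843 and 0.0869 CPM (scaled by library size) in libraries 1 and 2. Such floors, and all intervals given here, cover counting error only.

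Collagens are secreted or membrane-bound proteins in which 3 alpha chains wind into a triple helix. The helix requires glycine, the smallest amino acid, in every triplet of residues (Gly-X-Y). Types I, III, V and XI form the banded fibrils that carry force in the connective tissue layers of muscle and in tendon. Type IV builds the network of the basement membrane around each muscle fibre and capillary, and type VI forms beaded filaments just outside it. FACIT collagens (fibril-associated collagens with interrupted triple helices) decorate fibrils, and the multiplexins, types XV and XVIII, sit at basement membranes. The chains are folded and hydroxylated in the endoplasmic reticulum, trimmed after secretion, and cross-linked by lysyl oxidases.

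The repeat that makes the helix was visible in the coding sequences of all 44 genes. The members had been selected by their collagen names, so the repeat in them describes the family and is not an independent result. The following 54-base stretches, read from the GENCODE M21 coding sequences of the chains with the highest RNA of the type I, III and IV collagens, show the pattern that joins the family. Capitals mark glycine codons (any codon that starts with GG).
Col1a2-201 from codon 97: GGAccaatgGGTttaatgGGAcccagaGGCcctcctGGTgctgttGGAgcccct
Col3a1-201 from codon 164: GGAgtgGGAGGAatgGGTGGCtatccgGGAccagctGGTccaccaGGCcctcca
Col4a1-201 from codon 43: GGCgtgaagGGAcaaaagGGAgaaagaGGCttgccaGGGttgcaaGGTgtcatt
Each stretch is the first 18 codons of the longest unbroken run in that transcript of triplets that start with glycine. Within the Col3a1 stretch, glycine also filled some of the Y places. The longest run spanned 339 triplets in Col1a2, 344 in Col3a1 and 40 in Col4a1, so the type IV chain, of similar total length, had a repeat broken many times. A run of at least 10 triplets was present in 44 of 44 collagen genes and in 54 of 21857 other genes with a protein-coding transcript (0.247%). Glycine took a median of 24.2% of codons in collagen genes, from 9.07% in Col6a3 to 31.2% in Col9a3, against 6.03% in the other genes.

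Exon structure followed the same unit. Of 2005 coding exons in the collagen transcripts, 23.4% were exactly 54 bases long, which is 6 Gly-X-Y triplets, against 0.444% of coding exons of the other genes. Fibrillar chains held 305 such exons among 649 (47.0%). Col4a1 had 2 among 52 and Col4a2 had 1 among 47. The median collagen gene had 47 coding exons and the median other gene 6. A length that is a multiple of 9 bases, a whole number of triplets, was found for 61.8% of collagen exons and 14.03% of other exons. Type I, II, III, V and XI chains had runs of 337 to 344 triplets, whereas Col24a1 and Col27a1, which are also fibrillar chains, had runs of 216 and 217 and the highest shares of 54-base exons, 55.0% and 54.1%.

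**Figure D1:**
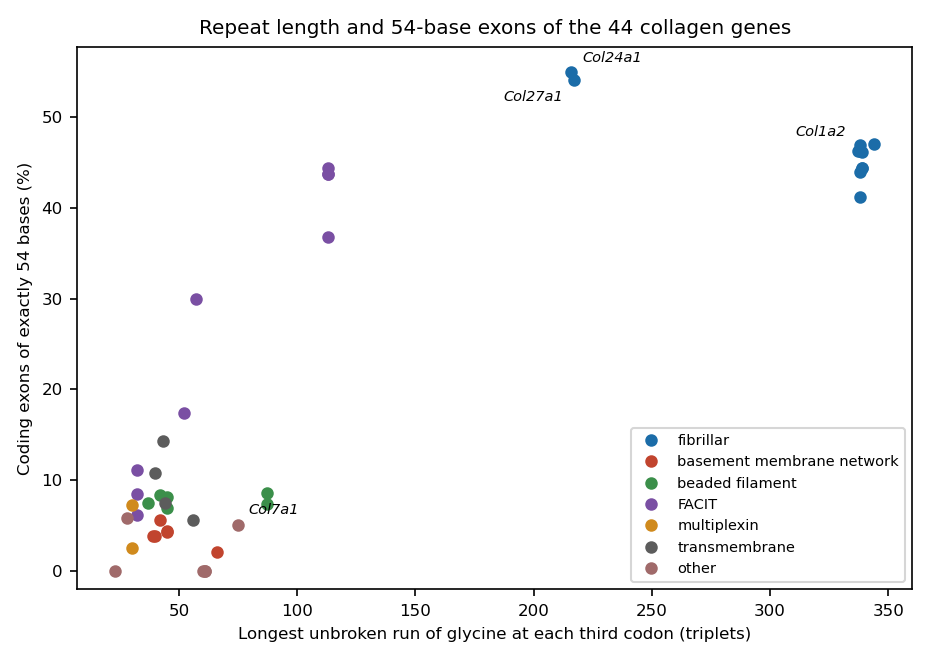
Longest unbroken run of Gly-X-Y triplets (x axis, triplets) against the share of coding exons that are exactly 54 bases (y axis, percent) for the 44 collagen genes, 1 point per gene, coloured by class. The fibrillar chains lie at runs of 216 to 344 triplets with 41.2% to 55.0% of exons at 54 bases, while the type IV chains lie between 39 and 66 triplets with at most 5.66%.

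Collagen RNA was a small part of this muscle's RNA. The 44 genes together stood at 108.2 TPM in library 1 and 141.6 TPM in library 2 (125 ± 23.6, SD, n = 2). That was 0.0277% and 0.0317% of the summed TPM of nuclear protein-coding genes (0.0297 ± 0.00288%, SD, n = 2). By expected counts in place of TPM the share was 0.0682%, and from transcripts of at least 3000 bases alone, a restriction chosen after the data were seen, 0.121%. The collagen total rested on 16921 and 19076 expected counts. Of the 44 genes, 18 reached a TPM of 1 in library 1, the level called detected here, and 17 did so in library 2. Those detected in both numbered 17, and 26 were below 1 in both. As a share, 39.8 ± 1.61% of collagen genes were detected per library (SD, n = 2), against 46.0 ± 0.594% of all genes with a protein-coding transcript. Median levels of the 17 collagen genes detected in both libraries were 4.98 and 5.72 TPM. The nuclear protein-coding genes detected in each library, a set chosen per library, had medians of 7.28 and 7.88.

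The RNA was concentrated in a few chains. The 8 highest genes made up 73.5% of the collagen TPM of library 1 and 76.3% of that of library 2. Col1a1, Col1a2 and Col3a1, which encode the chains of the type I and type III fibrils, held 34.5% and 40.7%. By class, fibrillar chains held 45.5 ± 3.18% of collagen TPM, type IV chains 22.1 ± 1.69%, type VI chains 16.3 ± 0.949%, FACIT chains 7.82 ± 0.129% and multiplexins 5.50 ± 0.133% (each SD, n = 2). Transmembrane collagens held 0.615 ± 0.0198% and the remaining 6 genes 2.23 ± 0.292%. The order of the 4 largest classes was the same in both libraries, by both quantifiers and by expected counts. With the second quantifier the type IV share came to 27.1% and 24.97%.

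**Figure D2:**
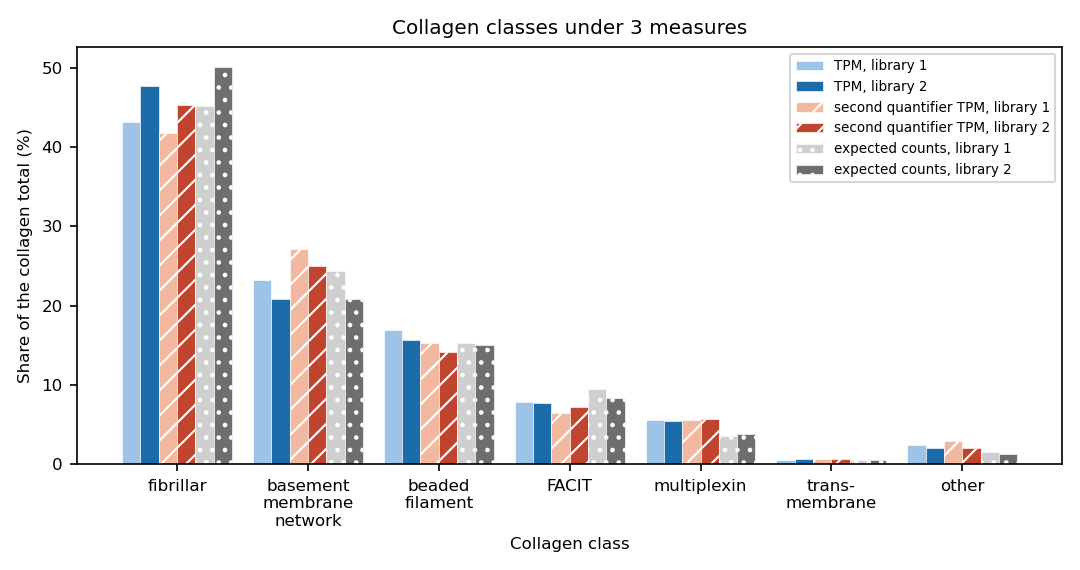
Share of the collagen total (y axis, percent) held by each of 7 collagen classes (x axis) in each library, by deposited TPM, by the TPM of the second quantifier and by expected counts. Fibrillar chains were the largest class in all 6 bars, between 41.8% and 50.1%, and type IV chains followed at 20.8% to 27.1%.

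Among fibrillar chains, Col1a2 (chromosome 6, 4504814 to 4541544, plus strand, mm10), the alpha 2 chain of type I collagen, stood highest of all collagen genes in deposited gene TPM at 16.72 in library 1 and 23.99 in library 2 (20.4 ± 5.14, SD, n = 2). The second quantifier put Col4a1 above it in both libraries, at 20.8 and 26.2 TPM against 15.8 and 23.4. The deposited TPM placed Col1a2 2652nd and 2160th among 22015 nuclear protein-coding genes. Col1a1 (chromosome 11), the alpha 1 chain that supplies most chains of the type I trimer, was at 11.54 and 18.63 TPM (15.1 ± 5.01). Col3a1 (chromosome 1, 45311538 to 45349706, plus strand), whose product forms a trimer of identical chains in compliant connective tissue, was at 9.09 and 15.00 TPM (12.0 ± 4.18). For each of these 3 genes library 2 was the higher. In deposited gene TPM the order was Col1a2, Col1a1, Col3a1 within each library. The second quantifier put Col3a1 (10.7 and 17.6 TPM) above Col1a1 (10.2 and 16.8) in both. Between libraries, the range of Col1a1 overlapped those of both others, while Col3a1 in either library lay below Col1a2 in either. Col4a1, which ranked between Col1a2 and Col1a1 by mean TPM, overlapped both in range.

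The minor fibrillar chains, which help set fibril diameter, were lower. Col5a1 was at 2.79 and 3.06 TPM, Col5a2 at 2.20 and 1.98, Col5a3 at 2.15 and 2.17, and Col11a2 at 1.35 and 1.37. All 4 lay below each of the main 3 in both libraries. Col11a1 (0.35 and 0.65), Col24a1 (0.27 and 0.53) and Col27a1 (0.24 and 0.10) were under 1 TPM. Col2a1, the main collagen of cartilage, was at 0.07 TPM in both libraries from 7 and 5 expected counts. Col10a1, a collagen of hypertrophic cartilage, had 0 counts in both, the only member to do so.

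Of the type IV chains, Col4a1 and Col4a2 accounted for nearly all of the RNA. Col4a1 (chromosome 8, 11198423 to 11312826, minus strand) was at 15.25 and 18.89 TPM (17.1 ± 2.57, SD, n = 2) and Col4a2 (chromosome 8, 11312805 to 11449287, plus strand) at 8.84 and 9.68 TPM (9.26 ± 0.594). Their products form the trimer found in nearly all basement membranes. The chains of the more restricted trimers were all under 0.5 TPM. Col4a5 was at 0.43 and 0.45 TPM, Col4a3 at 0.32 and 0.20, Col4a4 at 0.28 and 0.26, and Col4a6 at 0.05 and 0.06.

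Of the type VI chains, whose mutation causes muscle disease in humans, Col6a2 was at 6.39 and 8.29 TPM (7.34 ± 1.34), Col6a1 at 6.10 and 7.75 (6.92 ± 1.17) and Col6a3 at 5.65 and 5.72 (5.69 ± 0.0495). The 3 chains assemble together. In TPM, Col6a1 and Col6a2 lay close to each other, and Col6a3 was the lowest in both libraries, by more in library 2. The alternative chains that can take the place of alpha 3 were all under 0.5 TPM: Col6a6 at 0.17 and 0.30 from 40 and 63 counts, Col6a5 at 0.05 and 0.06 from 7 and 2, and Col6a4 with 1 expected count in library 1 and 0 in library 2.

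Among the remaining classes, the multiplexin Col15a1, a component of the basement membrane zone of muscle and capillaries, was highest at 4.98 and 5.85 TPM (5.42 ± 0.615). Col18a1, the other multiplexin and source of endostatin, was at 1.07 and 1.80. Of the FACIT chains, Col14a1 was at 3.14 and 3.31 TPM, Col22a1, a chain known from the muscle-tendon junction, at 2.27 and 3.37, and Col12a1 at 1.56 and 1.5. Col16a1 (0.59 and 0.79), Col20a1 (0.50 and 0.85) and Col19a1 (0.40 and 0.67) were under 1 TPM, as were the cartilage chains Col9a1 (0.06 and 0.32), Col9a3 (0.04 and 0.07) and Col9a2 (0 and 0.06, from 0 and 3 expected counts). The transmembrane chains were led by Col23a1 at 0.37 and 0.41 TPM and Col13a1, a collagen of the neuromuscular junction, at 0.22 and 0.39. Col25a1 was at 0.05 and 0.03 and Col17a1, the hemidesmosome collagen of skin, at 0.01 and 0.06. Col8a1 (0.76 and 0.96) and Col8a2 (0.57 and 0.94), the network-forming type VIII chains, lay just below 1, Col26a1 was at 0.10 and 0.11, and Col28a1 at 0.04 and 0.17. Col7a1, the anchoring fibril collagen, was the member detected in library 1 only, at 1.17 and 0.69 TPM.

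Many of the low levels rest on few counts. Summed expected counts were under 100 for 15 of the 44 genes and under 10 for 6. In bulk tissue, fewer cells of a type and less RNA per cell cannot be told apart, so no level here is a level per cell.

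**Figure D3:**
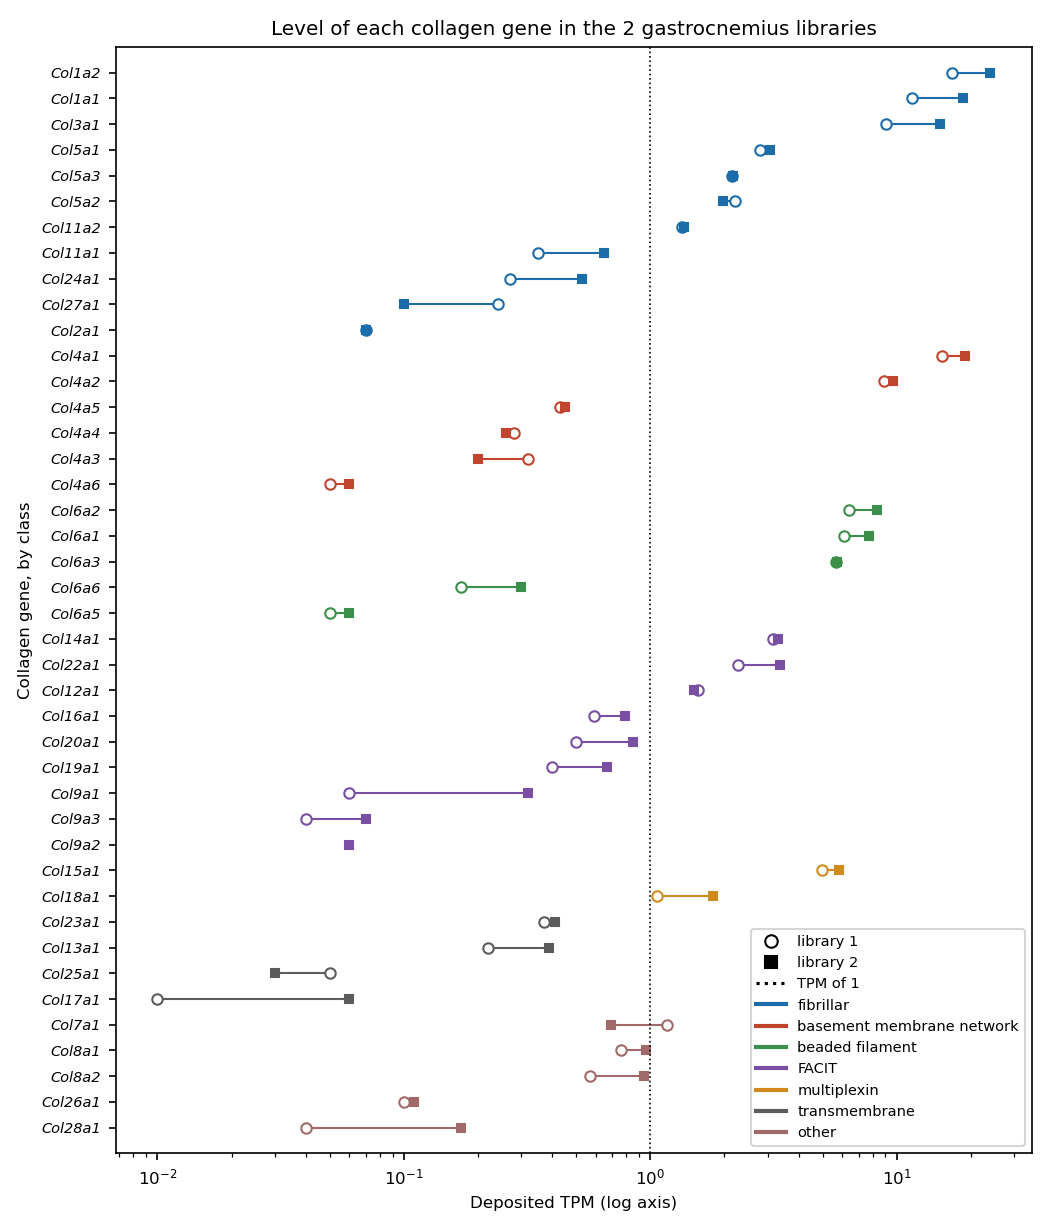
Deposited TPM (x axis, log scale) of each collagen gene (y axis, grouped by class) in library 1 (open circles) and library 2 (filled squares), with the dotted line at a TPM of 1. Col10a1 and Col6a4, at 0 TPM in both libraries, and the library 1 value of Col9a2, also 0, cannot be drawn on a log axis. The genes right of the line in both libraries number 17, and Col1a2 is the highest on this scale at 16.72 and 23.99 TPM.

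Chains that assemble with each other were compared as ratios of TPM within a library. Type I collagen contains more alpha 1 than alpha 2 chains, but Col1a1 was at 0.690 of Col1a2 in library 1 and 0.777 in library 2 (0.733 ± 0.0611, SD, n = 2). The second quantifier gave 0.644 and 0.715, and protein-coding transcripts alone gave 0.733 and 0.779, all below 1. For type VI, Col6a1 was at 0.955 and 0.935 of Col6a2, and the second quantifier gave 0.969 and 0.977. Col6a3 was at 0.926 and 0.738 of Col6a1. With transcripts of at least 3000 bases alone this ratio was 0.659 and 0.648, whereas by expected counts, which are not corrected for the greater length of Col6a3, it was 1.38 and 1.40. For type V, Col5a1 was at 1.27 and 1.55 of Col5a2. The low type IV chains gave Col4a3 to Col4a4 ratios of 1.14 and 0.769, on either side of 1, which the second quantifier put at 1.75 and 0.875, and Col4a5 to Col4a6 ratios of 8.6 and 7.5.

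The ratio of Col4a1 to Col4a2 also depended on the measure. Deposited TPM gave 1.73 and 1.95, the second quantifier 2.68 and 2.71, expected counts 1.297 and 1.33, and transcripts of at least 3000 bases 1.23 and 1.25. All were above 1, and the 4 measures spanned 1.23 to 2.71, more than the libraries differed under any of them. The full-length transcript Col4a1-201 (6615 bases) was at 10.89 and 12.14 TPM. The protein-coding transcript Col4a1-203, of 545 bases, held 22.8% and 29.2% of the gene's TPM from only 46.9 and 64.5 expected counts of the 2214 and 2157 assigned to the gene. The second quantifier placed 33.4% and 32.9% of the gene's TPM on Col4a1-204, a processed transcript of 416 bases, to which the first gave 4.59% and 4.34%.

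Short transcripts shaped TPM in several other collagen genes, since TPM divides by length. Transcripts not annotated as protein-coding held 8.71% (library 1) and 5.79% (library 2) of collagen TPM, but 1.83% and 1.19% of collagen expected counts. For Col1a1, Col4a2 and Col6a1, protein-coding transcripts of full length held at least 98.6% of deposited TPM in both libraries. In library 2 the second quantifier gave them 90.9% for Col4a2 and 96.5% for Col6a1. For Col15a1, Col15a1-202 (5172 bases) held 51.5% and 64.2%, and the processed transcript Col15a1-206 (404 bases) held 28.1% and 9.39% from 12.9 and 4.36 expected counts. For Col6a3, the leading transcript Col6a3-202 (9001 bases) held 58.3% and 79.4%, and the retained-intron transcript Col6a3-206 held 20.3% and 12.2%. The leading transcript held 91.9% and 94.5% in Col1a2, 87.9% and 85.0% in Col3a1, and 86.5% and 87.3% in Col6a2. The second quantifier gave it 87.5% and 88.1% in Col1a2, 63.6% and 65.6% in Col3a1, and 86.7% and 86.1% in Col6a2. It placed 21.7% and 18.6% of Col3a1 TPM on the retained-intron transcript Col3a1-207, of 431 bases. Col22a1 had 600 and 614 counts. Col22a1-202 (659 bases) and Col22a1-203 (1210 bases) held 13.1% and 9.50% of its deposited TPM in library 2 and 0% in library 1. Col18a1 had 158 and 173 counts, and Col18a1-204 (717 bases) held 31.1% of its deposited TPM in library 2 and 0% in library 1.

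The detection of Col7a1 and of Col11a2 rested on such transcripts. Col7a1 had 87.1% and 68.1% of its TPM in transcripts not annotated as protein-coding, and its full-length Col7a1-201 was at 0.15 and 0.22 TPM. Col11a2 in library 1 had 43.3% of its TPM in such transcripts and would be at 0.76 TPM without them. Quantifier choice changed detection of Col12a1, which the second quantifier put at 0.973 and 1.11 TPM. It also put Col8a2 at 1.44 and Col20a1 at 1.00 TPM in library 2, and Col7a1 at 1.43 and 0.313.

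**Figure D4:**
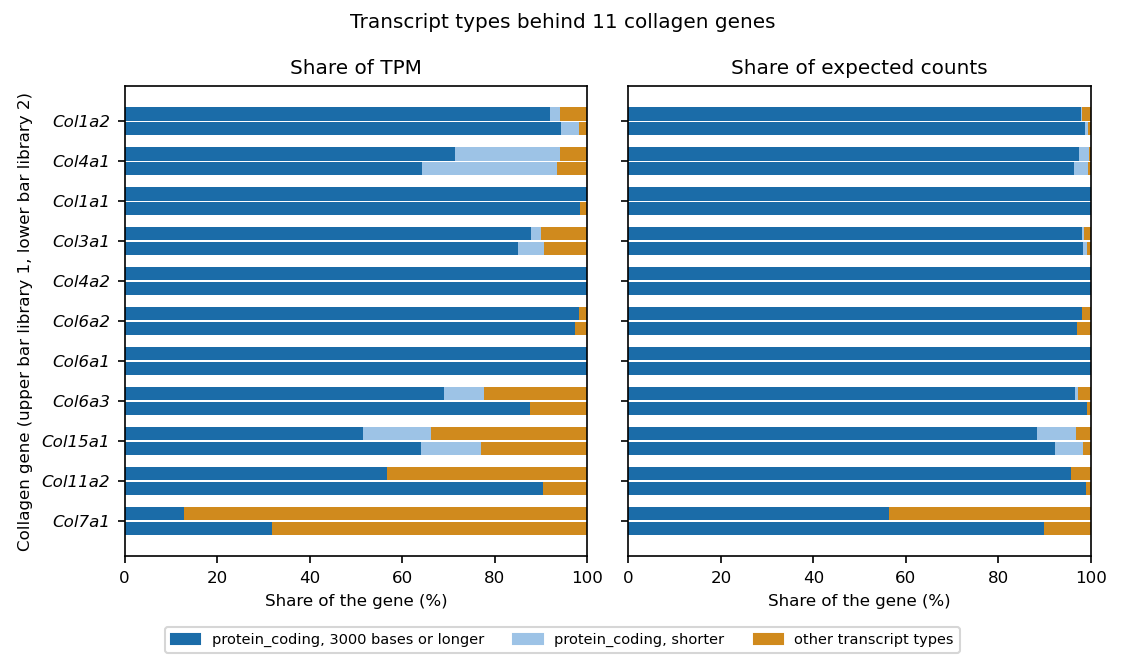
Share of each gene's TPM (left) and expected counts (right), in percent on the x axes, held by protein-coding transcripts of 3000 bases or longer, shorter protein-coding transcripts and other transcript types, for 11 collagen genes with library 1 above library 2. Shares of counts lie at 88.4% or more in long protein-coding transcripts for every gene shown but Col7a1 in library 1, while the same shares of TPM reach down to 51.5% in Col15a1 and 12.9% in Col7a1.

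Differences between the libraries were measured from rounded expected counts after TMM scaling (trimmed mean of M values), as the log2 ratio of library 2 over library 1 with an exact binomial 95% counting interval. Genes entered with a mean TPM of at least 1 and a summed count of at least 100. These numbered 17 collagen genes among 10486 genes. With 2 libraries no test between them can be made, since each side of the comparison is a single library.

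Type I and type III collagen RNA was higher in library 2. Col1a1 had 2046 and 2817 counts, a log2 ratio of 0.50 (0.42 to 0.58), or 1.42-fold. Col3a1 had 1355 and 1863 counts, a log2 ratio of 0.50 (0.40 to 0.60). Col1a2 had 2508 and 3166 counts, a log2 ratio of 0.38 (0.30 to 0.45). These 3 genes, with Col11a2 at 0.47 (0.14 to 0.80, from 138 and 186 counts), were above the 95th percentile of all genes compared, which was 0.35. On deposited TPM with no further scaling, the ratio of Col11a2 was only 0.021, below the median over all genes of 0.17. Type IV chains had intervals that spanned 0, with Col4a1 at 0.0021 (-0.084 to 0.088) and Col4a2 at -0.039 (-0.14 to 0.060). With spike-in scaling the interval of Col4a2 lay below 0.

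The type VI chains lay between these, and close to each other. Col6a2 was at 0.20, Col6a3 at 0.19 and Col6a1 at 0.18, each with an interval above 0. With spike-in scaling, which moved every log2 ratio by -0.070, the intervals of these 3 genes spanned 0. Col15a1 was at 0.32 (0.14 to 0.50) and Col18a1 at 0.17 (-0.15 to 0.49). The intervals of the minor fibrillar chains of type V lay below those of the type I and type III chains without overlap. Col5a1 was at -0.034, Col5a2 at -0.094 and Col5a3 at -0.14, each with an interval that spanned 0. The FACIT chains Col22a1 (0.073), Col14a1 (0.037) and Col12a1 (-0.13) also had intervals spanning 0. Summed over a class, the log2 ratio was 0.36 (0.32 to 0.41) for fibrillar chains, -0.014 (-0.077 to 0.049) for type IV, 0.20 (0.12 to 0.27) for type VI, 0.28 (0.12 to 0.44) for multiplexins and 0.030 (-0.071 to 0.13) for FACIT chains.

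No collagen gene among the 17 was 1.5-fold apart in either direction. Among all 10486 genes, 1.18% were at least 1.5-fold higher in library 2 and 2.11% at least 1.5-fold higher in library 1. The counting interval lay above 0 for 8 of the 17 collagen genes, where the share over all genes was 16.3%, and below 0 for none, where the share over all genes was 14.7%. With spike-in scaling it lay above 0 for 5 (Col1a1, Col1a2, Col3a1, Col11a2 and Col15a1) and below 0 for 1, where the shares over all genes were 8.30% and 26.1%. The ratio was above 0 for 12 and below 0 for 5, and 52.0% of all genes were above 0. The median over the 17 was 0.17, beside 0.0075 over all genes. Over the 41 collagen genes with a count in both libraries and no minimum level it was 0.040, with 24 of 41 above 0, beside 0.014 over all genes so chosen. On deposited TPM with no further scaling the median over all genes was itself 0.17, and the collagen median was 0.23, so 9 of the 17 lay above the median of all genes on that scale. The ratios of Col1a1, Col3a1 and Col1a2 on that scale were 0.69, 0.72 and 0.52, of Col4a1 0.31 and of Col11a2 0.021. With spike-in scaling, Col1a1 was at 0.43, Col3a1 at 0.43, Col11a2 at 0.40 and Col1a2 at 0.31, and the median over all genes was -0.063.

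**Figure D5:**
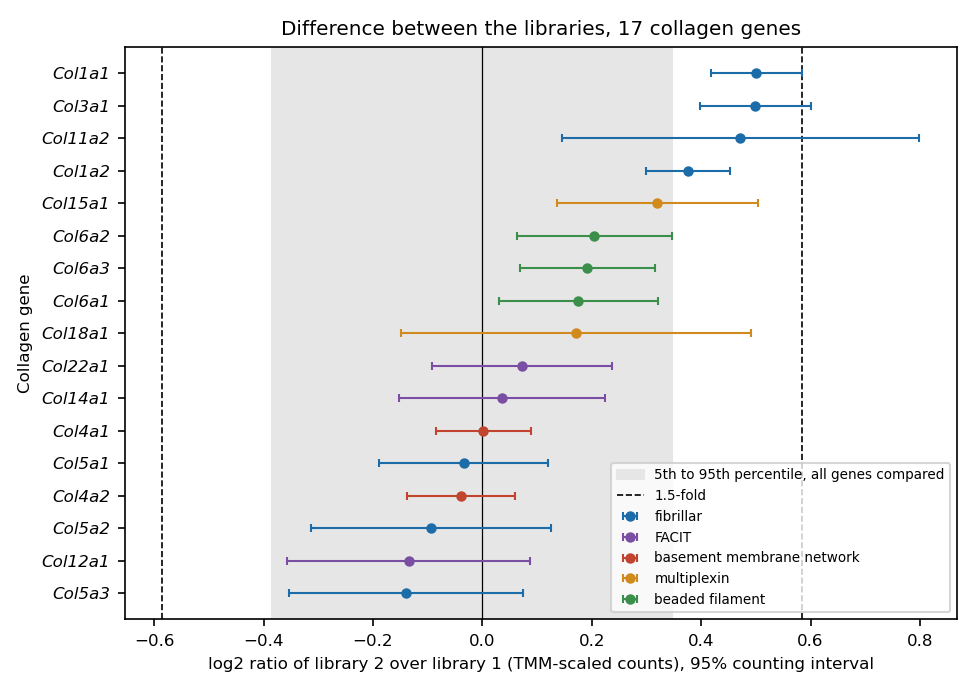
Log2 ratio of library 2 over library 1 from TMM-scaled counts (x axis) for the 17 collagen genes with enough counts (y axis), with 95% counting intervals, coloured by class. The grey band spans the 5th to 95th percentile of all genes compared, -0.38 to 0.35, and the dashed lines stand at 1.5-fold. Col1a1, Col3a1, Col11a2 and Col1a2 lie right of the band and no point reaches a dashed line.

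The genes below these minima gave larger but less certain ratios. Without any minimum level, 41 collagen genes had a count in both libraries. Col9a1 (7 and 25 counts), Col17a1 (1 and 2), Col11a1 (54 and 101), Col6a6 (40 and 63) and Col13a1 (20 and 31) were more than 1.5-fold higher in library 2. Col6a5 (7 and 2) and Col27a1 (31 and 13) were more than 1.5-fold higher in library 1. Of these, the interval lay above 0 for Col9a1, Col11a1 and Col6a6, and below 0 for Col27a1.

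Among markers of the cell types that could supply collagen, list medians lay below 0 for all but the muscle fibre and neuromuscular junction lists. Single markers went both ways within the fibroblast, tendon, endothelial, smooth muscle and adipocyte lists. All 8 fibroblast and fibro-adipogenic markers were detected in both libraries, with a summed level of 399.0 TPM in library 1 and 398.6 in library 2. The median log2 ratio was -0.093, with 2 of 8 above 0. The counting interval lay below 0 for 4 of the 8 and above 0 for 0, beside 14.7% and 16.3% over all genes. The 4 were Pi16 (-0.54), Pdgfra (-0.33), Gsn (-0.24) and Dcn (-0.080). The summed level rests mostly on Gsn (226 and 217 TPM) and Dcn (107 and 114). It is in deposited TPM, on which the median ratio over all genes was 0.17. Of 7 tendon markers, 5 entered the comparison, with a summed level of 61.9 and 65.6 TPM over the list and a median of -0.083. Among them Tnmd, a membrane protein of tendon cells, had a log2 ratio of 0.64 (0.15 to 1.15) from 58 and 88 counts, past 1.5-fold. Scx was at 0.16, while Fmod, Thbs4 and Tnc were at -0.083, -0.23 and -0.34. Below the minimum, Kera was at 0.65 and Mkx at -0.15. The medians of the other lists were -0.10 for 6 endothelial markers, -0.023 for 6 smooth muscle and pericyte markers, -0.30 for 3 of 4 Schwann markers, -0.0047 for 3 adipocyte markers, 0.15 for 4 of 5 neuromuscular junction markers and 0.023 for 6 muscle fibre markers. Among macrophage markers Csf1r was at -0.35, among cartilage and bone markers Comp was at -0.12, and no skin marker entered. The part of these cell types in the collagen differences was not tested.

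Genes that act on collagen chains were read from 5 lists that cover the pathway. Of 18 genes for folding and modification in the endoplasmic reticulum, 14 were detected in both libraries and 0 were 1.5-fold apart, with a median log2 ratio of -0.069. The highest were P4hb, the beta subunit of prolyl 4-hydroxylase, at 91.4 and 94.1 TPM, Mia3, which helps load procollagen for export, at 75.02 and 72.3, and Colgalt1, a collagen galactosyltransferase, at 16.9 and 18.1. P4hb also serves as a general protein disulfide isomerase. Serpinh1, the collagen chaperone also called Hsp47, was at 11.7 and 13.3 TPM with a log2 ratio of 0.12, below those of the type I chains it binds.

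Of 12 genes for propeptide cleavage and cross-linking, 7 were detected in both libraries. Pcolce, an enhancer of procollagen C-proteinase, was highest at 9.52 and 12.39 TPM, followed by Loxl1, a lysyl oxidase family member, at 2.79 and 3.82, and Pcolce2 at 2.39 and 2.82. Lox, the lysyl oxidase that starts collagen cross-linking, was at 2.77 and 1.79 TPM, from 389 and 217 counts. Its log2 ratio of -0.80 (-1.05 to -0.56) was past 1.5-fold, and opposite in direction to Col1a1, Col1a2 and Col3a1. Loxl1, at 0.28 (0.046 to 0.52), had the same direction as those collagen genes. Of the 7 genes compared, 3 were above 0 and 4 below. The median of this list was -0.026.

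Of 12 breakdown genes, 7 were detected in both libraries, with a median of -0.035 and 0 past 1.5-fold. The metalloproteinase inhibitors Timp2 (22.5 and 29.5 TPM) and Timp3 (22.7 and 23.7) and the gelatinase Mmp2 (10.4 and 11.1) led the list. The interstitial collagenases Mmp8 and Mmp13 had at most 1 count in a library. Of 10 receptor genes, 5 were detected in both, with a median of 0.093, led by the integrin beta 1 gene Itgb1 at 61.4 and 67.7 TPM. The collagen-binding receptor tyrosine kinases Ddr2 (7.13 and 6.41) and Ddr1 (5.10 and 7.72) followed. All 8 matrix growth factor genes were detected, with a median of -0.14 and 2 of 8 above 0. Tgfb3 (17.6 and 19.3 TPM), the receptor gene Tgfbr1 (12.3 and 12.2) and Pdgfa (7.39 and 8.84) were the highest of these.

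Several collagen genes neighbour each other. The 3 type IV pairs are each arranged head to head, transcribed away from a shared region: Col4a1 and Col4a2 on chromosome 8, whose annotated starts lie 21 bases apart, Col4a4 and Col4a3 on chromosome 1, 72 bases apart, and Col4a6 and Col4a5 on chromosome X, 1309 bases apart. Within these pairs, TPM ratios were 1.73 and 1.95 for Col4a1 to Col4a2, 1.14 and 0.769 for Col4a3 to Col4a4, and 8.6 and 7.5 for Col4a5 to Col4a6. Col3a1 and Col5a2 lie tail to tail on chromosome 1 with 24614 bases between them, and had TPM of 9.09 and 15.00 against 2.20 and 1.98. Col6a2 and Col6a1 follow each other on the same strand of chromosome 10, 85161 bases apart, and had nearly equal TPM.

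RefSeq promoter windows (GRCm38.p6, 250 bases before to 50 after an annotated start) were matched by symbol for 35 of the 44 genes, giving 38 windows. Those of Col1a2 and Col3a1, both higher in library 2, and of the head-to-head pair Col4a1 and Col4a2, which were not, are shown to set the promoters of the leading chains beside each other. Capitals mark motifs searched on both strands, so the reverse complement is marked too. The first motif is the CCAAT box, whose letters are its name. The TATA box was searched as TATAAA. The GC box was searched as GGGCGG. Within each window shown, none of these motifs overlaps another.
Col1a2, chr6:4505368-4505667, plus strand: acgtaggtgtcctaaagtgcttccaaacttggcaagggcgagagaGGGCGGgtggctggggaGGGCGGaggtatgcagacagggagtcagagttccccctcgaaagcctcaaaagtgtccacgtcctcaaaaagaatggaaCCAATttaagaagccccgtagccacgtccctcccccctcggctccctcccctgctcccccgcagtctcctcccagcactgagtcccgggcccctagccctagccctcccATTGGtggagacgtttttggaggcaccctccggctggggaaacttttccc
Col3a1, chr1:45311288-45311587, plus strand: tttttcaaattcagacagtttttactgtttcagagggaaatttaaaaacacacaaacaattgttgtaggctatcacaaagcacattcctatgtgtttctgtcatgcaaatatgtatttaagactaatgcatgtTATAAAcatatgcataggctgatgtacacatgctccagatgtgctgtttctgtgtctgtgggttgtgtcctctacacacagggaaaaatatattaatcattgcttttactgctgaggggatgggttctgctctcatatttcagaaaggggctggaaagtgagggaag
Col4a1, chr8:11312777-11313076, minus strand: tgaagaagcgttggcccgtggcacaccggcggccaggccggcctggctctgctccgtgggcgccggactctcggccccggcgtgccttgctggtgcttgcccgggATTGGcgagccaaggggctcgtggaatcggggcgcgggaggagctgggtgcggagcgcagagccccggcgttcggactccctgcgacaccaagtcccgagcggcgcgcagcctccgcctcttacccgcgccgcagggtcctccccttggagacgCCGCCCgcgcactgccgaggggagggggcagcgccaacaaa
Col4a2, chr8:11312555-11312854, plus strand: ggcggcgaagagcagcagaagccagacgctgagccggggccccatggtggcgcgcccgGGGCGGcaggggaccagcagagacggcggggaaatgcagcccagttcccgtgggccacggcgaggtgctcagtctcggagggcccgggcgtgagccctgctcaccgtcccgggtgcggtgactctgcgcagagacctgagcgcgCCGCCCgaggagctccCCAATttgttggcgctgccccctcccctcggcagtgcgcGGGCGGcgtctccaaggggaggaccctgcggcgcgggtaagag
The Col1a2 window held 2 CCAAT boxes and 2 GC boxes at 61.0% GC. It lies wholly inside the gene as placed above, downstream of the GENCODE start at 4504814. Its last CCAAT match begins at the RefSeq start itself. Which start is used in this muscle was not tested, so a motif missing from this window may lie outside it. The Col3a1 window held 1 TATA box, at position -117 from the annotated start, and neither of the other motifs, at 37.7% GC. The Col4a1 and Col4a2 windows overlap by 78 bases, with 74.0% and 73.7% GC, and held 1 CCAAT box each and 1 and 3 GC boxes. The GC box of Col4a1 lies in the overlap and is the same site as 1 of the 3 of Col4a2, read on the other strand. Over all 32851 windows of this length, 37.4% held a CCAAT box, 13.6% a TATA box and 35.7% a GC box. Over the 38 collagen windows these shares were 34.2%, 13.2% and 60.5%, and the median GC content was 59.8% against 52.7%. A GC box was found for 22 of the 35 collagen genes, a CCAAT box for 13 and a TATA box for 5. These matches describe the letters of the windows and are not evidence of binding. The 9 genes not matched were Col1a1, Col2a1, Col4a3, Col5a2, Col9a3, Col12a1, Col14a1, Col22a1 and Col26a1.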

How the data were processed

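The names of the programs are not given in the sources used here. A deposited read-me names the build, mm10, and the annotation, GENCODE M21. Per the file headers, a gene table and a transcript table per library have RSEM's columns (first quantifier), and another transcript table has kallisto's (second quantifier). The deposited expected counts (first quantifier) and estimated counts (second) need not be whole. The deposited TPM values are the authors' and include spike-ins in their total. The authors' percent of a gene's TPM per transcript was recomputed from TPM here. Reads from CAST alleles were assigned against mm10, and the effect of this on collagen genes was not tested.

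Members were chosen by symbol and transcript type. The members, classes, gene lists and rules were chosen with earlier results of these data known. The text names each member with its TPM and, of each pathway list, the 3 highest genes and any past 1.5-fold. It also names Serpinh1, P4ha1, Mmp8 and Mmp13, picked after their values were seen. Expected counts were rounded and scaled with TMM in edgeR 4.0.16 (R 4.3.3). DESeq2 1.42.0 size factors, deposited TPM and spike-in totals were alternatives. Counting intervals are exact binomial (Clopper-Pearson, 95%), computed with scipy 1.17.1. The ratio computation was tested on simulated data. No test between groups was possible with 1 group, and no p-value is given for any gene. Depth was 35594289 and 34541905 expected counts, of which spike-ins held 0.479% and 0.504%.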

Additional observations from a re-analysis of the deposited data

How the results depend on the processing

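With 2 libraries, each SD has 1 degree of freedom, and depth leaves the members under 100 summed counts without a firm ratio. Detection in both libraries numbered 17 genes at a TPM of 1 and 8 at a TPM of 5. The collagen share of nuclear protein-coding RNA, 0.0297% by TPM, was 0.0682% by expected counts, 0.0126% over all genes, and 0.121% from transcripts of at least 3000 bases, an alternative chosen after the data were seen. The type IV share of 22.1% was 26.0% by the second quantifier, and the type VI share of 16.3% was 14.7% by the second quantifier and 15.2% by expected counts. The number of collagen genes 1.5-fold higher in library 2, 0 with TMM, was 3 on deposited TPM (Col1a1, Col3a1 and Col18a1), where the share of all genes was 5.67%, and 5 with no minimum level, where it was 10.4%. The number 1.5-fold higher in library 1, also 0, was 2 with no minimum level, where the share of all genes was 12.1%. The number with a counting interval above 0, 8 with TMM and with DESeq2 size factors, was 5 with spike-in scaling, a count added after the data were seen. The median log2 ratio, 0.17 over 17 genes, was 0.040 over 41 genes with no minimum level. The cause of these shifts was not tested, beyond the construction of each alternative. The other comparisons of the main results with an alternative stayed within the spread of the libraries, within 1.5 times for a count, or, for the median log2 ratio under the other scalings, between 0.100 and 0.232. Among single genes, chain ratios, transcript shares and smaller classes, 90 of 118 did so and 28 did not. For a value given as a mean and SD, leaving out 1 library always counts as staying. Either of 2 values lies within 1 SD of their mean. Such comparisons make up most of the 90 and say nothing about stability. For each library left out, they number 9 for the TPM of single genes, 7 for chain ratios, 6 for transcript shares and 4 for smaller classes. All 28 that did not stay came from the other alternatives. By the second quantifier, 4 chain ratios moved and 3 stayed. No paired analysis was possible because the libraries form 1 group.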
